A study of Homo sapiens with 12 samples.

Results

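Of the 7629 genes annotated as long intergenic noncoding RNAs (lincRNAs) in HCT-116 cells, 174 had a mean of at least 2 FPKM over 12 libraries and are described here. FPKM is the number of reads of a gene scaled to the length of its exons and to the depth of the library. The table held 59172 features in all. The level that chose these 174 RNAs is a mean over every library, and it is given only as a description. HCT-116 is a human colorectal carcinoma line, and the series concerns chemotherapy and the cGAS-STING pathway, which senses DNA in the cytosol.

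There were 4 groups of 3 libraries. The first held cells in which SHP2 was silenced with short hairpin RNA and which then received CPT-11. The second held wild-type cells given lovastatin for 4 h and then CPT-11 for 24 h. The third held wild-type cells given CPT-11 alone for 24 h, and the fourth held untreated wild-type cells. CPT-11 is irinotecan, a prodrug whose metabolite SN-38 poisons topoisomerase I and so breaks DNA, and lovastatin blocks HMG-CoA reductase in the mevalonate pathway. The treatment label of the silenced samples also mentions lovastatin, but their titles do not, and they were grouped by title. HMGCS1, a sterol pathway gene that statins raise, measured 24.9, 25.5 and 25.8 FPKM in silenced cells, 105, 101 and 103 FPKM with lovastatin, 29.7, 31.2 and 25.2 FPKM with CPT-11 alone and 28.1, 29.9 and 31.0 FPKM in untreated cells. No group of silenced cells without CPT-11, or of lovastatin without CPT-11, was analysed here, and the number of hairpins or clones is not given in the labels. No group with a control hairpin was analysed here either. Differences between silenced and wild-type cells therefore cannot be told apart from effects of hairpin delivery or of selecting the cells.

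LincRNAs are transcripts that lie between protein-coding genes and carry no long open reading frame. Some act in the nucleus as scaffolds of bodies such as paraspeckles, some bind proteins or microRNAs in the cytoplasm, and some are hosts from which microRNAs or small nucleolar RNAs are cut. The transcription factor p53, which is wild type in HCT-116 cells, induces several lincRNAs after DNA damage, among them PURPL, PICART1 and the host of miR-34a.

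The microRNA hosts among the 174 RNAs show what part of the transcript carries a further product. The table of deposited values does not hold mature microRNAs, so only the hosts were measured. The mature sequences below are from RefSeq (GRCh38.p14), with bases 2 to 8, the seed that pairs with targets, in capitals. They are shown because their hosts are described below: MIR34AHG and MIR22HG differed between groups, and no difference of MIR222HG or MIR200CHG passed the test with all libraries.
hsa-miR-34a-5p (host MIR34AHG, chromosome 1): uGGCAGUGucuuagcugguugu
hsa-miR-22-3p (host MIR22HG, chromosome 17): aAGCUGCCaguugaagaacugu
hsa-miR-221-3p (host MIR222HG, chromosome X): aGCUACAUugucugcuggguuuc
hsa-miR-222-3p (host MIR222HG, chromosome X): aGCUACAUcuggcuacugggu
hsa-miR-200c-3p (host MIR200CHG, chromosome 12): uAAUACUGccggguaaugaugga
hsa-miR-141-3p (host MIR200CHG, chromosome 12): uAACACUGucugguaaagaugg
MiR-221-3p and miR-222-3p share the seed GCUACAU. The seeds of miR-200c-3p and miR-141-3p, AAUACUG and AACACUG, are not the same.

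Promoter windows of 300 bases, from 250 bases before to 50 after the RefSeq start, were found by symbol for 42 of the 174 RNAs, and 36 of these had a single window. The p53 half-site, the decamer that p53 response elements are built from, was searched on both strands. It matched 2329 of 35116 windows of all genes (6.63%) and 3 of the 36 windows (8.33%), those of LINC00839, OLMALINC and PURPL. PURPL had 2 adjacent half-sites with no base between them, which was found in 6 of the 35116 windows (0.0171%). They start 127 and 117 bases before the RefSeq start. PICART1, also known as a p53-induced RNA, had no match, and its window is printed for comparison. The capitals mark the 2 half-sites.
PURPL, GRCh38.p14, chr5:27472042-27472341, plus strand: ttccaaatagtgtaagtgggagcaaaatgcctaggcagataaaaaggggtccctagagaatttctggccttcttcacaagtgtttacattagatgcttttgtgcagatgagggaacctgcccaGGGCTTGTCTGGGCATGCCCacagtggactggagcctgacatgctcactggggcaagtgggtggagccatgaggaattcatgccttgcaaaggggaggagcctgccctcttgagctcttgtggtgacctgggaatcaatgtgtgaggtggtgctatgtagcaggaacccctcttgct
PICART1, GRCh38.p14, chr17:50055690-50055989, minus strand: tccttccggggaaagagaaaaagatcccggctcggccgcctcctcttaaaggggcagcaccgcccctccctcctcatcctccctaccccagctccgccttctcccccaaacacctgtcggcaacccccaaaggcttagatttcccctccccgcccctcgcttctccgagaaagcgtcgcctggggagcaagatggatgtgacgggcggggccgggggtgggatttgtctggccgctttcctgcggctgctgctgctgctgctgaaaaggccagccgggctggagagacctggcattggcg
A match is a description of letters and not a site at which p53 was measured, and no match says only that these letters are not in this window. The letters of the sterol regulatory element, TCACNCCAC on either strand, were in 396 of all windows (1.13%) and in 0 of the 36 windows, OLMALINC's included.

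Libraries held 14447847 to 16224271 reads assigned to genes. PTPN11, which encodes SHP2, measured 6.01, 6.54 and 7.15 FPKM in silenced cells and 43.2 to 55.4 FPKM in the other 9 libraries. Of 7 colon epithelial markers, EPCAM, KRT8, KRT18, KRT19, CDH1 and CDX2 were measured in every library, EPCAM at 62.0 to 87.8 and CDX2 at 3.03 to 5.88 FPKM, whereas VIL1, which encodes villin, was near 0 (at most 0.144 FPKM) and was not tested. A list of 10 markers of immune, stromal and endothelial cells summed to 5.73 to 6.68 FPKM in silenced, 5.38 to 5.92 in lovastatin-treated, 4.02 to 5.55 in CPT-11-treated and 3.51 to 4.18 FPKM in untreated libraries. COL1A1 made up most of that sum and of its differences, at 5.08 to 5.89 FPKM in silenced, 4.65 to 5.02 in lovastatin-treated, 3.43 to 5.01 in CPT-11-treated and 3.15 to 3.84 FPKM in untreated libraries, and each of the other 9 markers was at most 0.265 FPKM in any library. In bulk RNA, fewer cells of a type and less RNA per cell cannot be told apart. Replicate 3 of CPT-11 stood apart from replicates 1 and 2. It measured 400 FPKM of RN7SL2, the RNA component of the particle that targets proteins for secretion, against 37.2 and 17.6 FPKM in replicates 1 and 2. Among 173 tested lincRNAs, its value lay outside the range of the other CPT-11 libraries for 130 (75.1%), while that of replicate 1 did so for 96 (55.5%) and that of replicate 2 for 120 (69.4%). Over all tested genes the shares were 82.3% for replicate 3, 52.1% for replicate 1 and 65.6% for replicate 2. For 112 of the lincRNAs replicate 3 was nearer to the lovastatin mean than to the mean of replicates 1 and 2. The share of all tested genes and the counts for replicates 1 and 2 were not taken. On log2(FPKM + 1) of the 173, replicate 3 correlated by 0.957 with the lovastatin mean and 0.950 with the silenced mean. With the mean of the other CPT-11 libraries it correlated by 0.907. The root mean square log2 distance from the rest of the group was 0.365 for replicate 3, 0.360 for replicate 2 and 0.307 for replicate 1. Counts of called RNAs that use this group, over the 173 and on the lists, are given with and without that library where they change.

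The 174 RNAs were few and mostly low. Their median level was 3.15 FPKM, 76 lay between 2 and 3 FPKM, 50 reached 5 FPKM and 13 reached 10 FPKM. Together they held 68.9% of all lincRNA reads and 0.305% of all assigned reads. Just inside the limit lay Z68871.1 at 2.00, AC046143.2 at 2.01 and AC108865.1 at 2.03 FPKM, and just outside it AC024681.2 at 1.98, LINC02323 at 1.98 and AC009955.2 at 1.93 FPKM. A mean of the 4 groups can hide a low group: 129 RNAs had a mean of at least 2 FPKM in every group, and 45 did not.

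NORAD, which binds PUMILIO proteins and helps keep chromosomes stable, was the most abundant at 88.0 FPKM (mean of 12 libraries). SNHG19, a small nucleolar RNA host, followed at 47.8 FPKM, and MALAT1, an RNA of nuclear speckles, at 40.0 FPKM. SNHG8, another small nucleolar RNA host, measured 38.1 FPKM and the clone-named AC105460.1 36.6 FPKM. NEAT1, the scaffold of paraspeckles, measured 24.99 FPKM. AC015813.1 measured 21.8, AC092306.1 15.01, EBLN3P 13.5 and FLJ20021 12.1 FPKM. Of the 10, NORAD, SNHG19, NEAT1 and AC015813.1 passed a test in at least 1 comparison.

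Most of the 174 RNAs lie close to a coding gene, and how many other lincRNAs do so was not counted. The bounds of 31 overlap those of their nearest coding gene. Of the 174, 143 have a protein-coding gene within 50 kb, and 28 lie within 10 kb downstream of a coding gene on the same strand. Another 28 start within 1 kb of their nearest coding gene's start, on the opposite strand and without overlap (divergent pairs). RNAs that overlap the coding gene are not counted among the divergent pairs, even with close starts, such as FLJ20021 and PPP3CA at 498 bases. Exon bases are shared with another gene that had reads in 34 cases, 15 of them coding. Whether counting used strand is not stated, and for these 34 RNAs reads of an overlapping or antisense gene cannot be told apart from their own. Lengths ran from 160 to 22767 bases with a median of 1193.5 bases, 54 RNAs have a single exon block, and 104 have only a clone-based name. Chromosome 17 carries 22 of them. The median GC content of their longest transcripts was 47.8%.

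Each of the 173 RNAs that passed the filter on low reads was tested in 4 comparisons with limma on log2(FPKM + 1), over 18062 genes, at a Benjamini-Hochberg adjusted p under 0.05. The remaining RNA, AC046143.2, is 160 bases long, had 61 reads in all 12 libraries together and was not tested. Differences below are log2 differences of (FPKM + 1) ± SE, which understate the change of RNAs with low values, and levels are FPKM per library or mean ± SD (n = 3). The labels do not say whether the 3 libraries of a group are separate cultures; p-values here measure only the spread between libraries, which may be technical. Passing the test in at least 1 comparison were 52 RNAs, and 121 passed in none. Some counts are also given at an unadjusted p under 0.05. The share of all genes at that threshold is not given here, so those counts have no background. The 3 comparisons with CPT-11-treated cells share those libraries.

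**Figure D1:**
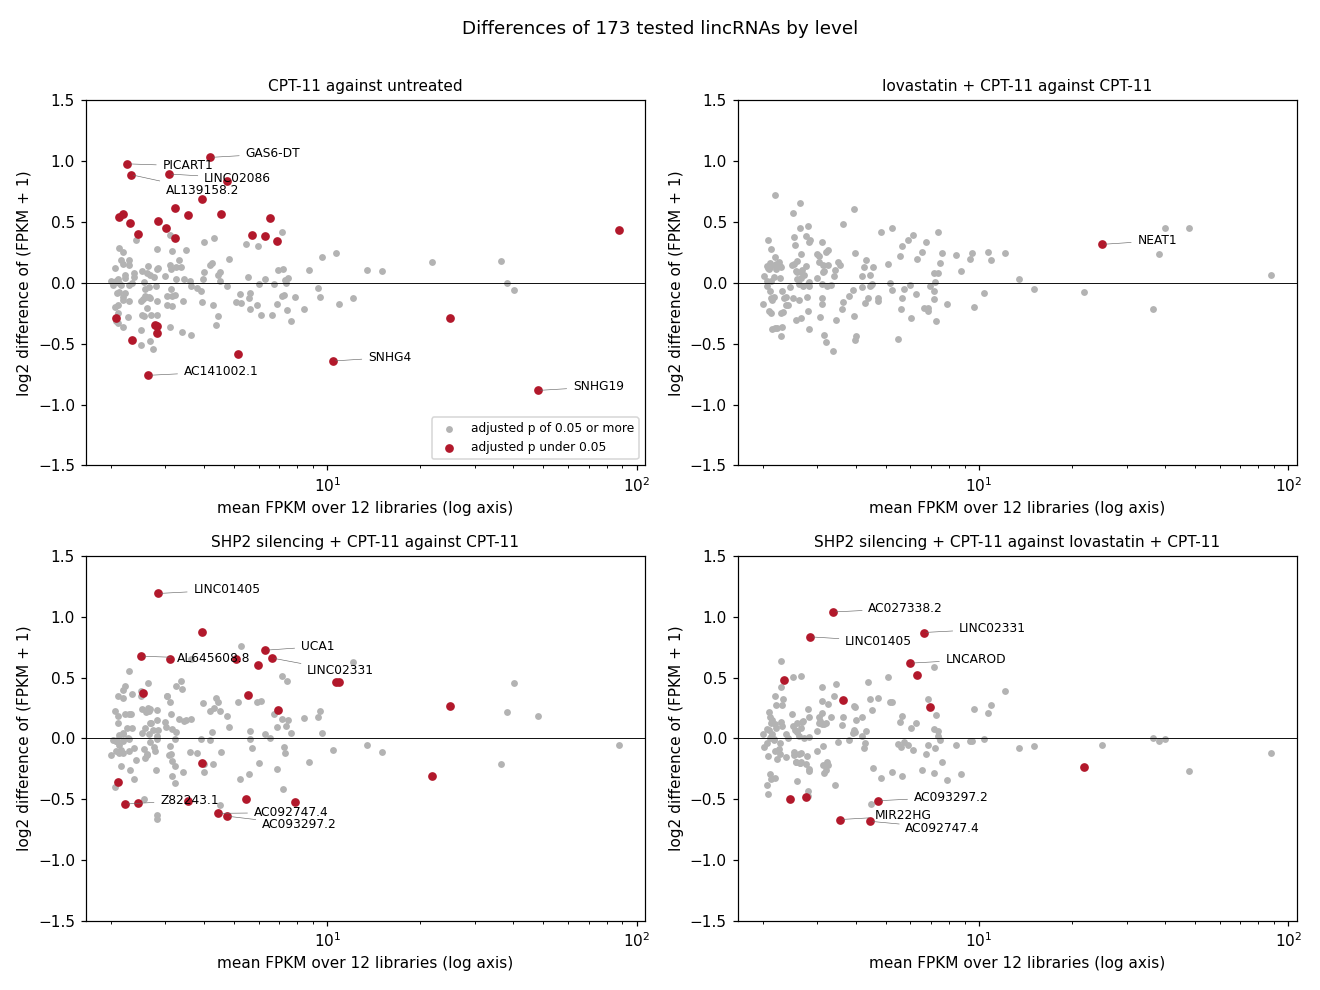
Log2 difference of (FPKM + 1) of 173 lincRNAs (y axis) against their mean FPKM over 12 libraries (log x axis) in 4 comparisons, with RNAs past an adjusted p of 0.05 in red and up to 7 of them named in each. Calls lie on both sides of 0 with CPT-11 and with SHP2 silencing. The most abundant RNA called is NORAD (88.0 FPKM) with CPT-11 and NEAT1 (24.99 FPKM) with silencing against CPT-11 alone. With lovastatin NEAT1 alone is called.

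With CPT-11 against untreated cells, 21 of 173 rose, or 12.1%, where 8.85% of all tested genes rose, and 10 fell, or 5.78%, where 7.7% of all tested genes fell. The limit of 2 FPKM was set on a mean over all groups, most of which received CPT-11. RNAs low in untreated cells could pass it through the treated groups, and the part of this in the counts was not tested. Among the 50 RNAs at 5 FPKM or more, 5 rose and 4 fell. Among 659 tested lincRNAs below 2 FPKM, 32 rose and 27 fell. On the log2(FPKM + 1) scale, which understates changes at low levels, the largest difference was that of GAS6-DT, 1.03 ± 0.09. By ratio of mean FPKM, PICART1 changed more than GAS6-DT. The median over the 173 was -0.0030, beside -0.0066 over all genes. In 39 RNAs (22.5%) the CPT-11 and untreated libraries did not overlap, against 29.4% of all tested genes. Of the 31 calls, 18 held whichever of the 6 libraries was left out, and 13 held under every alternative tried.

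PURPL, PICART1 and MIR34AHG, named above as induced by p53, rose with CPT-11. PICART1 is not on the list of p53 and DNA damage RNAs described below, and it was named for the size of its rise. Not all RNAs on that list rose. PURPL, a p53-regulated RNA that restrains p53 levels (ENSG00000250337, chromosome 5, 27472292 to 27496401), measured 6.04, 6.14 and 4.03 FPKM with CPT-11, against 2.44, 2.27 and 2.93 FPKM in untreated cells. Every treated library was above every untreated one, and the difference was 0.84 ± 0.15 (adjusted p = 0.0032). PICART1 (ENSG00000246640, chromosome 17, 50050349 to 50055739) measured 2.53, 2.45 and 2.58 FPKM with CPT-11, against 0.764, 0.623 and 0.990 FPKM in untreated cells, a ratio of means of 3.18. Its treated libraries were nearly alike, and the difference was 0.98 ± 0.10 (adjusted p = 0.0001). MIR34AHG, the host of miR-34a (ENSG00000228526, chromosome 1, 9148011 to 9198906), measured 2.48, 2.13 and 2.46 FPKM with CPT-11, against 1.46, 1.35 and 1.12 FPKM in untreated cells, and differed by 0.54 ± 0.09 (adjusted p = 0.0025). It shares exon bases with LNCTAM34A. In silenced cells, which also received CPT-11, PURPL measured 5.06 to 6.89, PICART1 2.42 to 2.99 and MIR34AHG 2.16 to 2.62 FPKM. With lovastatin and CPT-11 the ranges were 4.20 to 5.32 FPKM for PURPL, 2.54 to 3.39 FPKM for PICART1 and 2.11 to 2.62 FPKM for MIR34AHG, and no difference of these 3 RNAs from CPT-11 alone passed the test.

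NORAD, which is known to be induced by DNA damage and p53, rose as well. It measured 100.3, 97.2 and 85.4 FPKM with CPT-11, against 65.9, 70.7 and 71.2 FPKM in untreated cells, a difference of 0.44 ± 0.06 (adjusted p = 0.00067; 5093 to 8679 reads per library). NEAT1 moved the other way although it too is known as a p53 target: it measured 21.5, 20.4 and 21.9 FPKM with CPT-11, against 27.0, 25.3 and 26.3 FPKM in untreated cells, and fell by 0.29 on the log2 scale (SE 0.05, adjusted p = 0.0043). Of the 9 tested genes on a list of 17 noncoding RNAs of p53 and DNA damage, 3 rose (MIR34AHG, PURPL and NORAD) and 1 fell (NEAT1), with a median difference of 0.17 against -0.01 over all genes.

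The other large rises were RNAs with fewer known roles. GAS6-DT (ENSG00000272695, chromosome 13, 113864168 to 113866833) is transcribed away from the start of GAS6, which encodes a ligand of the TAM receptor kinases and starts 101 bases away. It measured 5.41, 5.12 and 4.46 FPKM with CPT-11, against 1.84, 2.07 and 1.87 FPKM in untreated cells, and its groups were far apart (adjusted p = 3.3e-05). GAS6 itself measured 17.9, 17.6 and 23.6 FPKM with CPT-11, against 14.4, 14.7 and 13.9 FPKM in untreated cells, and rose by 0.42 (adjusted p = 0.0091). LINC02086, on chromosome 17 (48646923 to 48707346), 13351 bases from HOXB7, measured 4.27, 4.18 and 3.48 FPKM with CPT-11, against 1.84, 1.54 and 1.63 FPKM in untreated cells, and rose by 0.90 ± 0.10 (adjusted p = 0.00014). AL133325.3, near NKX2-2 on chromosome 20, had one of the smallest spreads: 4.97, 5.25 and 4.65 FPKM with CPT-11, against 2.69, 2.56 and 2.82 FPKM in untreated cells, a rise of 0.69 ± 0.06 (adjusted p = 4.0e-05). AL139158.2, divergent to POU3F1, rested on few reads, 4 to 46 per library. It measured 2.62, 2.39 and 2.83 FPKM with CPT-11, against 0.404, 1.29 and 1.29 FPKM in untreated cells, and rose by 0.89 ± 0.19 (adjusted p = 0.0090).

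**Figure D2:**
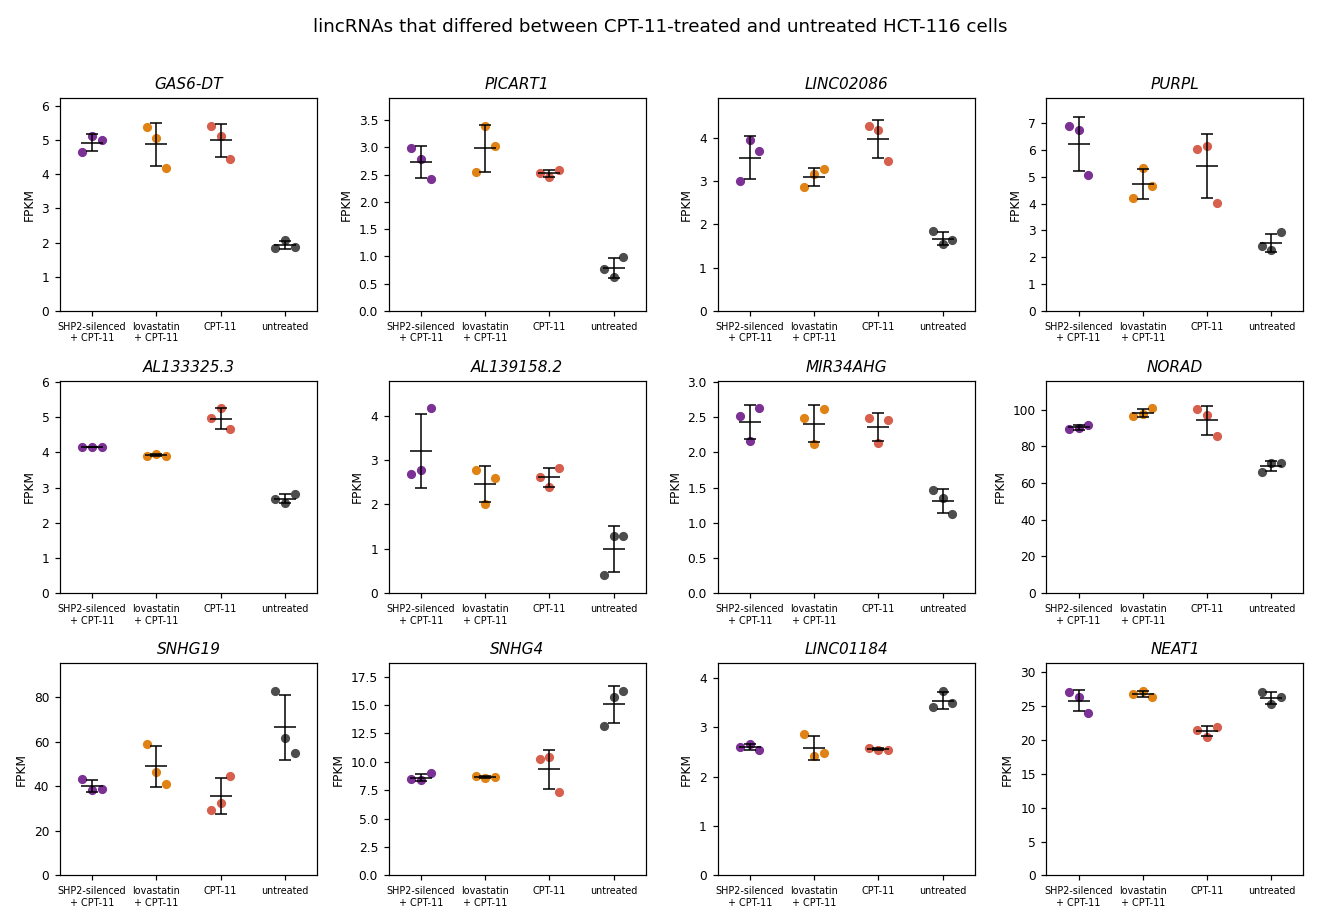
FPKM of 12 lincRNAs in each library (points) with the mean and SD of 3 libraries (bars) in SHP2-silenced cells with CPT-11, lovastatin with CPT-11, CPT-11 alone and untreated cells. The first 8 panels show RNAs that were higher with CPT-11 alone than in untreated cells, such as PICART1 at 2.45 to 2.58 against 0.623 to 0.990 FPKM, and the last 4 show RNAs that were lower.

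The remaining 13 rises, LINC00342 (0.39) and LINC02035 (0.37) among them, were of 0.34 to 0.61. UCA1, an RNA known for high levels in bladder and colon tumours, measured 5.77, 4.97 and 5.49 FPKM with CPT-11, against 4.19, 3.78 and 3.75 FPKM in untreated cells (0.38 ± 0.07, adjusted p = 0.0051). MIR22HG, the host of miR-22, measured 3.97, 4.55 and 4.11 FPKM with CPT-11, against 3.03, 2.77 and 1.93 FPKM in untreated cells (0.55 ± 0.13, adjusted p = 0.013). BLACAT1, an RNA described in bladder cancer that shares exon bases with LEMD1, measured 3.03 ± 0.32 FPKM with CPT-11 and 2.04 ± 0.18 FPKM in untreated cells (0.41 ± 0.10, adjusted p = 0.022). LINC00294 measured 5.32, 4.96 and 4.72 FPKM with CPT-11, against 2.602 to 3.76 FPKM in untreated cells, and it shares exon bases with CSTF3. AL390728.6 averaged 6.74 ± 0.34 FPKM with CPT-11 and 4.37 ± 0.50 FPKM in untreated cells. The rises of AL008723.1 (0.61), AC007114.1 (0.57), AC022400.5 (0.49), LINC01405 (0.51), LINC02298 (0.45), BLACAT1 and AC005332.6 (0.34) each lost their call when at least 1 library was left out, and AC005332.6 was the single one of the 31 calls whose groups overlapped.

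Among the 10 falls were those of 2 small nucleolar RNA hosts, SNHG19, which had the largest, and SNHG4. SNHG19 (ENSG00000260260, chromosome 16, 2154797 to 2155358) measured 29.6, 32.7 and 44.7 FPKM with CPT-11, against 83.0, 61.8 and 55.1 FPKM in untreated cells, and fell by 0.88 on the log2 scale (SE 0.18, adjusted p = 0.0067). The groups did not overlap, although the highest treated library was replicate 3. FTH1, which encodes ferritin heavy chain, was also highest in replicate 3 of CPT-11 and replicate 1 of untreated cells within their groups: it measured 106, 73.9 and 422 FPKM with CPT-11, against 413, 235 and 191 FPKM in untreated cells, and its part in the SNHG19 result was not tested. SNHG4 measured 10.3, 10.4 and 7.38 FPKM with CPT-11, against 13.2, 15.7 and 16.3 FPKM in untreated cells, and fell by 0.64 (SE 0.11, adjusted p = 0.0027). It shares exon bases with the coding genes MATR3 and SIL1. Over all biotypes, 7 of 25 tested small nucleolar RNA hosts fell and 0 rose by limma, where 7.7% of all tested genes fell and 8.85% rose, with a median of -0.20. At an unadjusted p under 0.05, 10 fell and 0 rose, with no share of all genes to set beside them. Voom on recovered reads called 7 falls and 0 rises (8.41% and 9.46% of all genes). With only these groups in the fit 4 fell (2.31% of all genes), and without replicate 3 of CPT-11 11 fell (12.9% of all genes). The other 5 falls were of SNHG1, SNHG3, SNHG10, SNHG26 and DANCR, which the annotation does not class as lincRNAs. DANCR averaged 22.7 ± 0.88 FPKM with CPT-11 and 32.6 ± 0.58 FPKM in untreated cells, and SNHG3 12.6 ± 1.3 and 19.9 ± 0.70 FPKM. SNHG8, SNHG9, SNHG15 and EPB41L4A-AS1, the other hosts among the 174, did not pass.

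OLMALINC lies 8679 bases from SCD, which encodes the stearoyl-CoA desaturase of fatty acid synthesis. It measured 2.50, 2.52 and 2.02 FPKM with CPT-11, against 3.13, 3.06 and 3.55 FPKM in untreated cells, and fell by 0.35 (SE 0.09, adjusted p = 0.022), and SCD fell by 0.54 (adjusted p = 2.1e-05). AC125807.2, 764 bases downstream of TEAD4, fell by 0.41 and TEAD4 by 0.47. LINC01184 averaged 2.56 ± 0.03 FPKM with CPT-11 and 3.54 ± 0.18 FPKM in untreated cells. AC141002.1 (-0.76), AC132872.1 (-0.47) and C22orf34 (-0.29) were also lower. OLMALINC, AC125807.2, AC141002.1, AC132872.1 and C22orf34 lost their call when at least 1 library was left out.

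With only the 6 libraries of both groups in the fit, 10 RNAs rose and 3 fell (4.08% and 2.31% of all genes, 6.39% together). Voom on recovered reads called 18 rises and 8 falls (9.46% and 8.41% of all genes). Without replicate 3 of CPT-11, 23 rose and 18 fell (11.6% and 12.9% of all genes).

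With SHP2 silencing, 24 of the 173 RNAs changed, or 13.9%, where 22% of all tested genes changed. Compared with CPT-11 alone, silenced cells with CPT-11 had 14 of 173 RNAs higher, or 8.09%, where 10% of all tested genes were higher, and 10 lower, or 5.78%, where 12% were lower. Of protein-coding genes 26.1% were called in either direction, and of tested lincRNAs with a mean below 2 FPKM 8.04%. These classes differ in level and read number, whose part in the shares was not tested. The median over the 173 was 0.05, and over all genes it was 0.00.

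On the log2(FPKM + 1) scale, LINC01405 had the largest difference of any of the 173 in any comparison. By ratio of means, the rise of PICART1 with CPT-11 was larger than that of LINC01405 with silencing. LINC01405 reached a mean of 2 FPKM only through its silenced libraries. It lies on chromosome 12 (110936585 to 110958208, ENSG00000185847), 15863 bases from the muscle gene MYL2. It measured 5.19, 5.68 and 6.01 FPKM in silenced cells, 3.58, 2.21 and 2.49 FPKM with lovastatin, 1.38, 2.15 and 2.26 FPKM with CPT-11 alone and 0.999, 0.912 and 1.20 FPKM in untreated cells. Every silenced library was above every other library, and the difference from CPT-11 alone was 1.19 ± 0.15 (adjusted p = 0.00083), a ratio of means of 2.92. UCA1 (ENSG00000214049, chromosome 19, 15828206 to 15836326) had the same order of groups. It measured 10.2, 9.52 and 9.04 FPKM in silenced cells, 6.59, 5.93 and 6.57 FPKM with lovastatin, 5.77, 4.97 and 5.49 FPKM with CPT-11 alone and 4.19, 3.78 and 3.75 FPKM in untreated cells. No group overlapped another, and silenced cells exceeded CPT-11 alone by 0.72 ± 0.07 (adjusted p = 0.00026), whereas the step between lovastatin and CPT-11 alone (0.20 ± 0.07, adjusted p = 0.20) did not pass. UCA1 shares exon bases with LINC01764. These 2 RNAs are those of the 24 whose call held under every alternative.

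LINC02331 on chromosome 14 measured 9.66, 7.78 and 10.7 FPKM in silenced cells, against 4.51, 6.95 and 5.32 FPKM with CPT-11 alone (0.66 ± 0.15, adjusted p = 0.014). LNCAROD, known to act on the expression of the Wnt inhibitor DKK1, measured 9.41, 9.15 and 7.83 FPKM in silenced cells, against 5.32, 7.39 and 4.00 FPKM with CPT-11 alone (0.60 ± 0.16, adjusted p = 0.024). PVT1, the long transcript next to MYC that is often amplified with it, measured 8.28, 7.66 and 8.42 FPKM in silenced cells, against 6.46, 7.14 and 6.72 FPKM with CPT-11 alone. That rise of 0.23 ± 0.07 was small (adjusted p = 0.034), and MYC, named here after its values were seen, measured 120 to 121 FPKM in silenced cells, against 74.6 to 80.1 FPKM with CPT-11 alone. NEAT1 was higher in silenced cells as well, at 27.0, 26.3 and 24.0 FPKM, against 21.5, 20.4 and 21.9 FPKM with CPT-11 alone (0.26 ± 0.05, adjusted p = 0.011), which placed it near its untreated level of 25.3 to 27.0 FPKM. ELFN1-AS1, an RNA known from colon tumours, averaged 13.2 ± 1.7 FPKM in silenced cells and 9.35 ± 1.8 FPKM with CPT-11 alone (adjusted p = 0.041). The other 7 rises, of 0.35 to 0.88, were of AL645608.8, LINC01315, PAXIP1-AS1, AC092171.2, EPB41L4A-AS1, AC102953.2 and AL390719.2. The libraries of AL390719.2 overlapped, at 4.37, 6.06 and 6.14 FPKM in silenced cells, against 1.63, 1.72 and 5.14 FPKM with CPT-11 alone.

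Among the falls, AC093297.2, 5648 bases from MRPS30 on the same strand, measured 3.01, 3.18 and 3.10 FPKM in silenced cells, against 5.96, 6.33 and 4.08 FPKM with CPT-11 alone (-0.64 ± 0.13, adjusted p = 0.0088). AC092747.4, which lies within the bounds of MED21, a Mediator subunit gene, measured 2.98, 3.28 and 2.39 FPKM in silenced cells, against 4.94, 6.21 and 3.86 FPKM with CPT-11 alone (-0.62 ± 0.13, adjusted p = 0.013), and MED21 fell by 0.36 (adjusted p = 0.013). MIR22HG measured 3.00, 2.12 and 2.84 FPKM in silenced cells, against 3.97, 4.55 and 4.11 FPKM with CPT-11 alone (-0.52 ± 0.13, adjusted p = 0.020). BLACAT1 measured 1.92, 2.04 and 1.40 FPKM in silenced cells, against 2.93, 3.38 and 2.76 FPKM with CPT-11 alone (-0.53 ± 0.10, adjusted p = 0.0085). LEMD1, with which it shares exon bases, fell by 0.46 (adjusted p = 0.012). MIR22HG and BLACAT1 had risen with CPT-11 alone, and their levels in silenced cells, 2.12 to 3.00 and 1.40 to 2.04 FPKM, lay beside those of untreated cells, 1.93 to 3.03 and 1.83 to 2.19 FPKM. The remaining 6, AC026401.3, AC078820.1, Z82243.1, AP003486.1, AC015813.1 and AL133325.3, fell by 0.21 to 0.54.

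**Figure D3:**
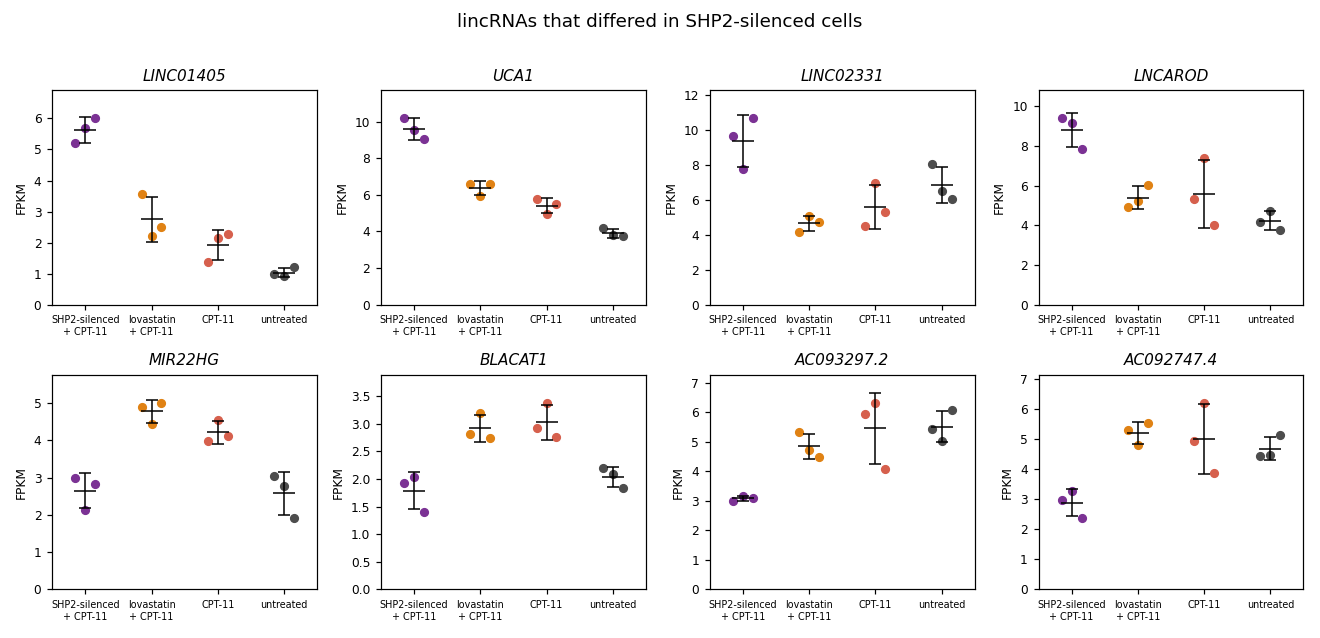
FPKM of 8 lincRNAs in each library (points) with the mean and SD of 3 libraries (bars) in the 4 groups. LINC01405 and UCA1 are highest in every SHP2-silenced library, at 5.19 to 6.01 and 9.04 to 10.2 FPKM, and MIR22HG and BLACAT1 lie lower in silenced cells than with lovastatin or CPT-11 alone.

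The call of 22 of these 24 RNAs was lost under at least 1 alternative. With only the 6 libraries of both groups in the fit, 2 rose, LINC01405 and UCA1, and 0 fell (1.01% and 1.48% of all genes). Voom called 18 rises and 9 falls (13% and 14.3% of all genes). At an unadjusted p under 0.05, 27 rose and 23 fell, with no share of all genes to set beside them. Without replicate 3 of CPT-11, 30 rose and 28 fell (21.6% and 21.9% of all genes, 43.5% together), and without replicate 1 of CPT-11, 3 rose and 3 fell (5.58% of all genes in either direction). Leaving out replicate 2 of CPT-11 gave 10 calls (6.38% of all genes). Leaving out replicate 1 of the silenced cells gave 10 calls (6.71%), replicate 2 gave 11 (7.86%) and replicate 3 gave 13 (11% of all genes). The 6 calls that held whichever library was left out were those of LINC01405, UCA1, NEAT1, AC093297.2, BLACAT1 and AC015813.1. GC content of the longest transcript moved with direction: the median over the RNAs that rose was 50.7% and over those that fell 42.7%, as over all genes at 58.7% and 41.6%, and its part in these results was not tested. Of 25 tested small nucleolar RNA hosts, 6 rose and 1 fell, where 10% of all tested genes rose and 12% fell. The median was 0.17, beside 0.00 over all genes. Without replicate 3 of CPT-11, 13 rose and 3 fell (21.6% and 21.9% of all genes). Limma fitted to these groups alone called 0 of 25 (2.5% of all genes), and voom called 5 rises and 1 fall (13% and 14.3%). At an unadjusted p under 0.05 with all groups, 8 rose and 1 fell, with no share of all genes to set beside them.

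Silenced cells and lovastatin-treated cells were also compared directly. The CPT-11 libraries are in neither mean, but they enter the estimate of the spread. In silenced cells, 8 RNAs were higher, or 4.62%, where 2.58% of all tested genes were higher, and 6 were lower, or 3.47%, where 4.26% were lower (6.84% together). With only these groups in the fit 12 were higher and 8 lower (5.74% and 7.76% of all genes), and voom called 7 higher and 7 lower (2.95% and 4.83% of all genes). LINC02331 averaged 9.37 ± 1.5 FPKM in silenced cells and 4.65 ± 0.45 FPKM with lovastatin (0.87 ± 0.15, adjusted p = 0.0052). LINC01405 was higher by 0.83 ± 0.15 (adjusted p = 0.0065) and UCA1 by 0.52 ± 0.07 (adjusted p = 0.0018). MIR22HG averaged 2.65 ± 0.47 FPKM in silenced cells and 4.77 ± 0.30 FPKM with lovastatin (-0.67 ± 0.13, adjusted p = 0.010). OLMALINC averaged 2.12 ± 0.21 FPKM in silenced cells and 3.36 ± 0.17 FPKM with lovastatin (-0.48 ± 0.09, adjusted p = 0.0077), and SCD differed by -1.28 (adjusted p = 6.3e-08). These 5 calls held under every alternative. AC027338.2, on 10 to 49 reads per library, averaged 5.09 ± 0.99 FPKM in silenced cells and 2.05 ± 1.0 FPKM with lovastatin, with no overlap (1.04 ± 0.21, adjusted p = 0.014). LNCAROD, CDC37L1-DT, AC012313.1 and PVT1 were also higher, and AC092747.4, AC093297.2, BLACAT1 and AC015813.1 lower. LNCAROD, PVT1, AC012313.1, CDC37L1-DT and AC093297.2 lost their call whichever of the 6 libraries was left out. Without replicate 1, 2 or 3 of the silenced cells 7, 8 and 7 RNAs were called, where 3.41%, 3.31% and 3.99% of all genes were. Without replicate 1, 2 or 3 of lovastatin 8, 7 and 6 were called, where 4.05%, 3.58% and 3.38% of all genes were.

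Lovastatin before CPT-11 changed few of the lincRNAs past the threshold. Against CPT-11 alone, 1 of 173 rose, or 0.578%, where 0.393% of all tested genes rose, and 0 fell, where 0.072% fell. At an unadjusted p under 0.05, 22 rose and 15 fell, with no share of all genes to set beside them. Voom called 2 rises and 0 falls (0.554% and 0.221% of all genes, 0.775% together). The called RNA was NEAT1, which measured 26.7, 27.2 and 26.3 FPKM with lovastatin and CPT-11, against 21.5, 20.4 and 21.9 FPKM with CPT-11 alone (0.32 ± 0.05, adjusted p = 0.031). Its lovastatin libraries were all above its CPT-11 libraries and within the range of untreated cells or just past it. The call was lost in a fit of these groups alone and when any library other than replicate 3 of CPT-11 was left out.

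OLMALINC is known in liver cells as an RNA that rises with statins and with sterol depletion, together with its neighbour SCD. It measured 3.20, 3.34 and 3.54 FPKM with lovastatin and CPT-11, against 2.50, 2.52 and 2.02 FPKM with CPT-11 alone, with no overlap between the groups. The difference of 0.38 ± 0.09 did not pass (adjusted p = 0.10), and without replicate 3 of CPT-11 it was 0.31 and passed (adjusted p = 0.019). SCD measured 319, 325 and 339 FPKM with lovastatin and CPT-11, against 141, 145 and 139 FPKM with CPT-11 alone, a difference of 1.20 (adjusted p = 1.2e-07). OLMALINC with lovastatin and CPT-11 lay beside untreated cells, at 3.06 to 3.55 FPKM, while SCD with lovastatin was above its untreated level of 203 to 209 FPKM.

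The count for lovastatin rests on replicate 3 of CPT-11 more than any other result. Without that library, 20 RNAs rose and 17 fell (15.9% and 14.3% of all tested genes, 30.2% together). Among the 37, AL390719.2 rose by 1.01 (adjusted p = 0.0028), AC141002.1 by 0.86 (adjusted p = 0.0043), SNHG19 by 0.62 (adjusted p = 0.020) and BAIAP2-DT by 0.47 (adjusted p = 0.0031), and LINC00839 fell by 0.38 (adjusted p = 0.0043). With all libraries the difference was 0.61 for AL390719.2, 0.66 for AC141002.1, 0.45 for SNHG19, 0.36 for BAIAP2-DT and -0.31 for LINC00839, and none passed. BAIAP2-DT shows the pattern: it measured 7.09, 6.59 and 6.14 FPKM with lovastatin and CPT-11, against 4.49, 4.48 and 5.96 FPKM with CPT-11 alone, the last value being replicate 3. AL390719.2, BAIAP2-DT and LINC00839 were named after their values were seen.

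**Figure D4:**
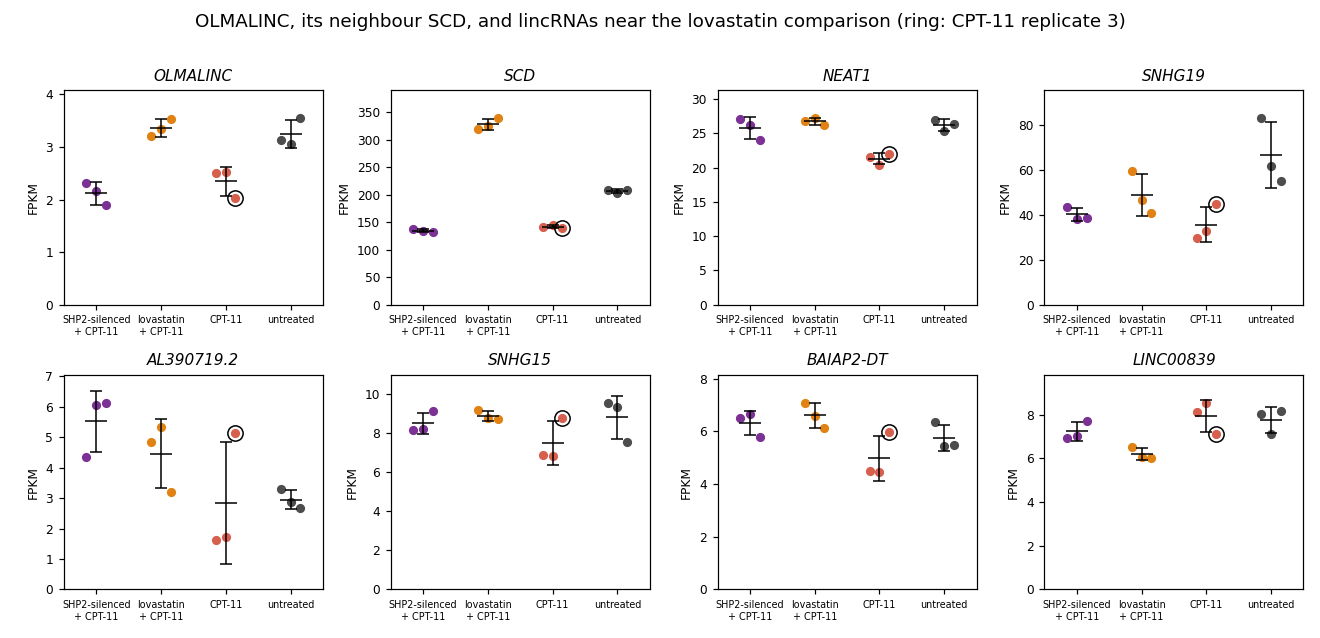
FPKM of OLMALINC, its neighbour SCD and 6 further lincRNAs in each library (points) with the mean and SD of 3 libraries (bars) in the 4 groups, with replicate 3 of CPT-11 ringed. In SNHG19, AL390719.2, SNHG15 and BAIAP2-DT the ringed library lies above the other 2 CPT-11 libraries, towards the lovastatin values.

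Differences of the lincRNAs and of their nearest coding genes were set side by side as a description, for the 128 tested RNAs with a tested coding gene within 50 kb. Both come from the same libraries, so depth and composition are shared. Over the 128 pairs Pearson's r was 0.26 for CPT-11 against untreated, 0.31 for lovastatin against CPT-11 alone, 0.38 for SHP2 silencing against CPT-11 alone and 0.29 for silencing against lovastatin. For the 28 divergent pairs it was 0.58 with CPT-11, and 0.01 to 0.06 in the other 3 comparisons. Of 6 divergent RNAs called with CPT-11, 2 had a called partner. ITGA3, which starts 229 bases from PICART1, differed by 0.09 with CPT-11 (adjusted p = 0.50). For 27 RNAs that overlap the bounds of the coding gene r was 0.12 with CPT-11 and -0.03 with lovastatin. It was 0.30 for silencing against CPT-11 alone and 0.42 for silencing against lovastatin. For 25 RNAs within 10 kb downstream of a coding gene on the same strand r was 0.40 with CPT-11 and 0.48 to 0.62 in the other 3 comparisons. In 5 pairs with CPT-11 both partners were called, 4 in the same direction, GAS6-DT with GAS6 among them. The pair in opposite directions was NEAT1 (-0.29) with FRMD8 (0.46). With SHP2 silencing both were called in 7 pairs, all 7 in the same direction. In 4 of the 7 the RNA overlaps the bounds of the coding gene. BLACAT1 with LEMD1 is among these 4, and because they share exon bases their reads cannot be told apart.

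**Figure D5:**
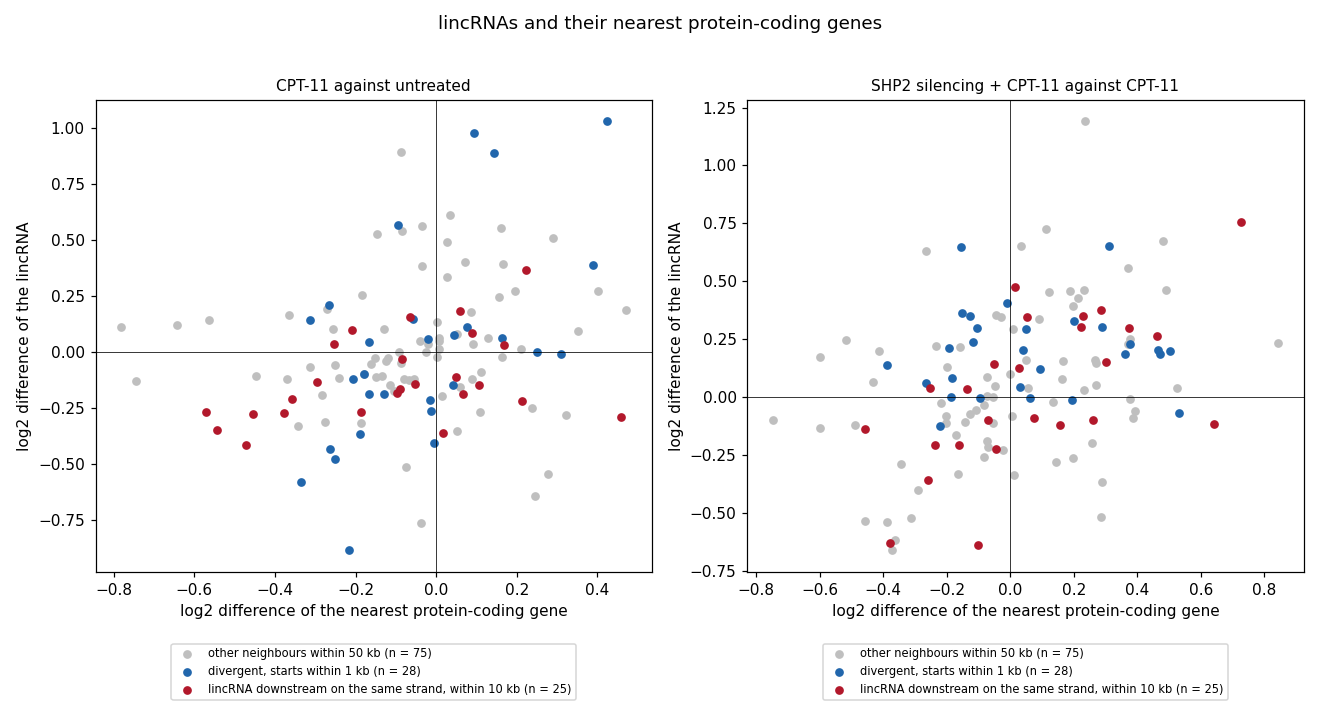
Log2 difference of (FPKM + 1) of each lincRNA (y axis) against that of its nearest protein-coding gene within 50 kb (x axis) for CPT-11 against untreated (left) and SHP2 silencing with CPT-11 against CPT-11 (right), coloured by arrangement. Divergent pairs (blue) tend to move together with CPT-11 (r = 0.58), though PICART1 rose with little change of ITGA3, and not with SHP2 silencing (r = 0.06). Downstream RNAs (red) tend to move with their neighbours in both (r = 0.40 and 0.62).

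Several well known lincRNAs stayed on the side of no call in all 4 comparisons. MALAT1 averaged 40.0 FPKM but spread widely within groups, at 45.2, 42.0 and 49.3 FPKM in silenced cells, 35.6, 46.5 and 56.6 FPKM with lovastatin, 44.8, 32.9 and 24.1 FPKM with CPT-11 alone and 31.7, 31.8 and 39.9 FPKM in untreated cells. Its differences had an SE of 0.20, and none passed. LINC01234, an RNA known from colon and gastric tumours, measured 6.07 to 8.77 FPKM over the 12 libraries, and its difference (SE 0.10) was 0.0032 for CPT-11 against untreated, 0.08 for lovastatin and 0.10 for silencing against CPT-11 alone, and 0.02 for silencing against lovastatin. MIR222HG measured 6.76, 5.23 and 5.42 FPKM in silenced cells, against 9.66, 9.22 and 5.77 FPKM with CPT-11 alone, a difference of -0.42 that passed only without replicate 3 of CPT-11 (-0.62, adjusted p = 0.0014). MIR200CHG, host of 2 of the epithelial microRNAs shown above, had 12 to 26 reads per library and measured 2.16 to 4.40 FPKM. Over the 174 RNAs, the highest group mean was 1.41 times the lowest in the median, and 5.43 times in LINC01405, which had the widest ratio.

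The lists of noncoding RNAs by role give the wider frame over all biotypes. Their counts stand beside 8.85% of all tested genes that rose and 7.7% that fell with CPT-11. With SHP2 silencing against CPT-11 alone, 10% of all tested genes rose and 12% fell. In fits of the compared groups alone these shares were 4.08% and 2.31% with CPT-11, and 1.01% and 1.48% with silencing. Without replicate 3 of CPT-11 they were 11.6% and 12.9% with CPT-11, and 21.6% and 21.9% with silencing. By voom they were 9.46% and 8.41% with CPT-11. Of 26 tested microRNA hosts, 3 rose and 5 fell with CPT-11, and 2 rose and 2 fell with SHP2 silencing. In fits of the compared groups alone 1 rose and 1 fell with CPT-11, and limma called 0 with silencing. Without replicate 3 of CPT-11, 4 rose and 4 fell with CPT-11, and 3 rose and 7 fell with silencing. Of 22 tested RNAs known from colon cancer, 3 rose with CPT-11 (UCA1, BLACAT1 and TINCR) and 0 fell by limma (6 and 1 at an unadjusted p under 0.05, and 5 and 0 by voom), and 3 rose (PVT1, UCA1 and ELFN1-AS1) and 2 fell (BLACAT1 and LUCAT1) with SHP2 silencing. With only the groups compared in the fit, limma called 0 of these 22 with CPT-11 and 1, UCA1, with SHP2 silencing. Without replicate 3 of CPT-11, 5 rose and 0 fell with CPT-11, and 7 rose and 5 fell with silencing.

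Of 13 tested nuclear and chromatin RNAs, NEAT1 fell with CPT-11, also without replicate 3 or with the compared groups alone. With SHP2 silencing NEAT1 rose and FTX fell, and without replicate 3 of CPT-11 2 rose and 3 fell. Of 8 tested RNAs of stress, interferon and NF-kB signalling, MIR22HG rose and MIR4435-2HG fell with CPT-11, and LUCAT1 and MIR22HG fell with SHP2 silencing. Without replicate 3 of CPT-11, 3 of the 8 rose and 0 fell with CPT-11, and 0 rose and 3 fell with silencing. On the list of p53 and DNA damage, NEAT1 and PVT1 rose and GAS5 fell with SHP2 silencing against CPT-11 alone, and without replicate 3 of CPT-11 3 rose and 2 fell, NORAD among the falls. In fits of silenced and CPT-11-treated cells alone, limma called 0 on these 3 lists, and with CPT-11 against untreated 0 on the list of stress, interferon and NF-kB. With lovastatin against CPT-11 alone, where 0.393% of all genes rose and 0.072% fell, NEAT1 was the one RNA called on these lists with all libraries. That count rests on replicate 3 of CPT-11: without it, 9 small nucleolar RNA hosts rose and 3 fell, 1 microRNA host rose and 4 fell, 3 colon cancer RNAs rose and 1 fell, NEAT1 rose and TUG1 fell on the nuclear list, and NEAT1 and LINC00963 rose on the p53 list, where 15.9% of all genes rose and 14.3% fell.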

How the data were processed

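RNA from 12 libraries of HCT-116 cells, 3 in each of 4 groups, was sequenced, and the authors deposited a table of FPKM values per gene with gene lengths. Per the submitters' processing notes, the tools were DESeq2 1.16.1, featureCounts 1.5.0-p3, HISAT2 2.0.5 and StringTie 1.3.3b, and the build was hg19; the coordinates of all 58735 features with Ensembl identifiers are those of GENCODE release 29 on GRCh38, and coordinates are given as GRCh38. Per the labels' protocols, libraries were made with a NEBNext Ultra kit; how strand and multiple mapping were handled is not given in the sources used here. The deposited other column, gene length in bases, equals the union of exons for all 174 RNAs. FPKM times length gave whole reads for 100% of nonzero values within 0.01 of a read, which gave the reads per library and per gene. The deposited scaling followed median-of-ratios size factors, so a change is relative to the typical gene.

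Members are rows with the biotype lincRNA and a mean of at least 2 FPKM. The members, gene lists and comparisons were chosen with earlier results of these data known. Genes were tested with limma 3.58.1 (R 4.3.3, variance trend) on log2(FPKM + 1) with all 12 libraries in 1 model and a mean per group, if 3 or more libraries held 10 or more reads (after scaling to the median library) and all libraries together 15 or more (18062 genes). Benjamini-Hochberg adjustment ran over all tested genes of a comparison, with a threshold of 0.05, and the test was tested on simulated data. Named genes are, per comparison, up to 8 largest rises and 8 largest falls among called members whose libraries do not overlap, the 10 most abundant members, members on the lists, those next to the threshold, and the nearest coding gene within 50 kb of a named one; MYC, and members named beside a count or a left-out library, were named after their values were seen. List symbols were matched by symbol, older symbol or RefSeq synonym, and GC content is that of the longest GENCODE transcript. LINC-PINT, TP53COR1, CCAT1, CASC21 and SNHG28 were not analysed here. The result of 1 called RNA is not reported here. Alternatives were pseudocounts of 0.1 and 0.5, no filter, a mean of at least 1 FPKM, scaling to library totals, voom on the recovered reads, only the groups compared, the replicate number as a block, each library left out, and limits of 1 and 5 FPKM for membership. MicroRNAs and promoters are from RefSeq (GRCh38.p14).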

Additional observations from a re-analysis of the deposited data

How the results depend on the processing

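The number of called lincRNAs changed with the libraries in the fit, and so did the share of all tested genes called. For SHP2 silencing against CPT-11 alone that share was 22%, 2.5% with only these groups, and 5.58% to 43.5% when a library was left out. With all groups and with only the compared groups it was 16.5% and 6.39% for CPT-11, 0.465% and 0.199% for lovastatin, and 6.84% and 13.5% for silencing against lovastatin. Counts below with no share here or above have no background. For CPT-11 against untreated, 31 were called, 13 in a fit of these groups alone, 56 and 9 with limits of 1 and 5 FPKM for membership, and 22 to 41 when a library was left out. For lovastatin against CPT-11 alone, 1 was called, 2 with voom, 0 with only these groups or a replicate block, and 0 to 37 when a library was left out. For SHP2 silencing against CPT-11 alone, 24 were called, 2 with only these groups, 10 with no low-count filter, 44 and 12 with limits of 1 and 5 FPKM, and 6 to 58 when a library was left out, the highest without replicate 3 of CPT-11. For silencing against lovastatin, 14 were called, 9 with no filter, 9 with a replicate block, 24 and 5 with limits of 1 and 5 FPKM, and 6 to 8 when a library was left out. The other counts, for both smaller pseudocounts, a filter on a mean of 1 FPKM and scaling to library totals, were within 1.5 times of these. Limits of 1 and 5 FPKM change how many RNAs are counted, and no filter adds genes to the adjustment; the cause of the other changes was not tested. The replicate numbers do not pair the libraries: the deviations of same-numbered libraries from their group means correlated by -0.39 to 0.17. The block gave 25 calls for CPT-11 and 17 for silencing against CPT-11 alone. Over 47 differences of single RNAs and 658 alternatives, 484 kept their call and 174 lost it, 113 of them with a library left out, and 0 changed sign. Counting error is widest for RNAs with few reads, such as AC141002.1 with 4 to 19 per library. With 3 libraries a group, no test for outlying libraries was made.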
